A study of Saccharomyces cerevisiae with 41 samples.

Results

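Pre-40S particles purified through Rio2 were compared with particles purified through Ltv1, nucleotide by nucleotide, by 1M7 probing of their 20S pre-rRNA. Of 41 samples in the series, 8 enter the comparison itself: 2 of Rio2, 2 of Ltv1 and the 4 controls that both share. The Rio2 samples came from BY4741 yeast with rio2-HTP::K.I.URA3 and the Ltv1 samples from BY4741 with ltv1-HTP::K.I.URA3, so each purification stands for a single tagged strain, and both received 1M7. The 4 mid-early controls came from the rio2-HTP, ltv1-HTP, enp1-HTP and tsr1-HTP strains, 1 sample each, and are labelled as control without a named reagent. Beside them are shown 2 samples of Enp1 (enp1-HTP::K.I.URA3) and 3 of Tsr1 (tsr1-HTP::K.I.URA3). At a few nucleotides and over some runs of nucleotides, 2 samples of Nob1 (nob1-TAP::K.I.URA3) are shown as well. All of these are BY4741, 1M7-treated and labelled 20S. Alternative controls were 2 DMSO samples of the Tsr1 strain, labelled 20S, and 3 late controls, labelled 18S, 1 from the nob1-TAP strain and 2 from fun12-TAP::K.I.HIS3. The position of the stop was read from 3 DMS samples and their 3 controls, all of 18S from the fun12-TAP strain. The 8 samples of the comparison are labelled as purified 20S rRNA, and the labels allow growth in YPD or YPG/R without saying which was used for a given strain. Each purification has a single deposited value per nucleotide, the authors' mean of its samples, so there is no SD and no test was possible between them. The 1799 nucleotides from 2 to 1800 were compared out of 1800 in the deposited table. Nucleotide 1 is listed at 1 in every column. Depth is not given with the rates, so no counting interval can be set on any value. The table ends at the 3′ end of 18S, so the 20S label could not be checked against the spacer sequence that 20S carries beyond it.

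Small subunits leave the nucleus as pre-40S particles that hold 20S pre-rRNA and a set of assembly factors. Ltv1 sits with Enp1 on the head, near the beak, where it holds back the stable placement of ribosomal protein Rps3, and it leaves after phosphorylation by the casein kinase Hrr25. Rio2 is an atypical kinase with ATPase activity that occupies the cleft between head and body, near the places of the P-site tRNA and the top of helix h44. The reagent 1M7 acylates the ribose 2′ hydroxyl of flexible nucleotides, and reverse transcriptase stops next to the adduct. The drop-off rate at a nucleotide is the deposited fraction for a stop there. Of the 100 strongest DMS-dependent stops of mature ribosomes in the same table, 87 had an adenine immediately 5′ of the listed nucleotide, and 50 had an adenine at it. DMS methylates unpaired adenines and cytosines, so a listed position names the stop, 3′ of the modified base, and positions below name the stop.

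Windows of the 18S sequence in which Rio2 and Ltv1 particles stood apart are shown here to give the letters behind the positions. They are read 5′ to 3′ on the rRNA strand from the deposited table, which writes T for U, and the numbering is that of the table, because no genome build is named. Capitals mark the run or the single stop for which a window is shown, and other stops past the limit of 0.5 used below, such as A437, A1762, A1763 and G1767, are in lower case. In the h45 window the capitals are a run higher in Rio2 particles, and the lower-case gaac after it spans the dimethylated adenines A1781 and A1782 and the stop C1783. The windows begin and end 9 nucleotides outside the capitals, which are U1769 to G1778 in h45, A1749 to U1752 and A1754 to A1756 in h44, G902 to U909 in the platform, A428 to C433 in the 5′ domain, U611 to G616 in the h18 to h20 region and G1553 to A1559 in h41 to h43. The capitals of the h44 window take in the decoding adenines A1755 and A1756.
h45 and the end of h44: gtaacaaggTTTCCGTAGGtgaacctgc
h44 with the decoding adenines: atttagaggAACTaAAAgtcgtaaca
platform: ttgtcagagGTGAAATTcttggattt
5′ domain: gaaggcagcAGGCGCgcaaattac
end of the h18 to h20 region: ttaaagttgTTGCAGttaaaaagc
head, around A1312: tgtctgcttAattgcgata
head, A1391 to C1399: agagggactAtcggtttCaagccgatg
head, h41 to h43: tagagcattGTAATTAttgctcttc

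Over the whole molecule the treated columns resembled each other. Drop-off rates averaged 0.0294 in Rio2 and 0.0290 in Ltv1 particles, against 0.0286 in the control. Across the 1799 nucleotides the treated rates of Rio2 and Ltv1 had a Pearson r of 0.886 and a Spearman rho of 0.904, given as a description because the nucleotides share libraries and the base composition of 1 molecule. The Rio2 column had an r of 0.806 with the control and the Ltv1 column 0.814, and by Spearman rho 0.786 and 0.804. Untreated RNA thus had a similar pattern of stops. The r values here and below include the stop at A1782, near 1 in Rio2, Ltv1 and the control. Its weight in them was not measured. Among the 100 highest rates of each column, 66 nucleotides were shared by Rio2 and Ltv1. On the plot of treated rates most nucleotides lie along the diagonal, with named stops to either side of it.

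**Figure D1:**
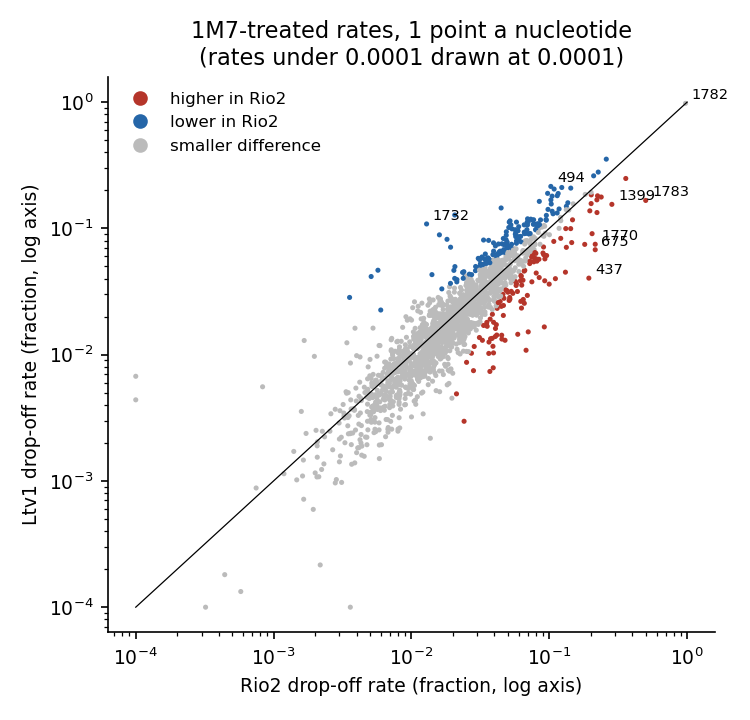
The 1M7-treated drop-off rate of every nucleotide in Rio2 (x) and Ltv1 (y) particles, as fractions on log axes, coloured where the scaled reactivities differ by 0.5 or more. The stop at A1782 is near 1 in both, C1783, U1770, A437, U675 and C1399 lie on the Rio2 side of the diagonal, and A1732 and U494 on the Ltv1 side.

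For a comparison between columns, reactivity was taken as the treated rate minus the control rate, scaled to its own column by a divisor, the average of its high values: the top 2% of nucleotides were set aside and the next 8% averaged. A value of 1 is thus the level of a strongly reactive nucleotide, 0 is the control level, and a value below 0 is a treated rate under that control. Untreated RNA below means this pooled control unless the Tsr1 DMSO samples are named. The divisors were 0.0317 for Rio2 and 0.0332 for Ltv1. Since both use 1 control, its rate cancels in the unscaled difference, and with 1 common divisor the comparison is that of the treated rates alone. Reactivity reached 0.3 at 321 nucleotides in Rio2 and 301 in Ltv1, and it reached 0.7 at 163 in Rio2 and 142 in Ltv1. The treated rate lay above the control at 48.6% of nucleotides in Rio2 and 43.9% in Ltv1.

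The difference, Rio2 minus Ltv1, reached 0.5 in size at 256 nucleotides (14.2%). It was higher in Rio2 at 112 (6.23%) and lower at 144 (8.00%). The absolute difference had a median of 0.127, and 29 nucleotides differed by 2 or more, 15 higher and 14 lower in Rio2. Values ran through the limit without a gap, from 0.506 at A550 just inside it to 0.499 at A93 just outside. From the treated rates alone, with 1 common divisor, where the limit is a rate difference of 0.0162, 110 nucleotides were higher and 146 lower. The balance of directions depended on the scale, and higher in Rio2 made up 43.8% of the calls. It made up 62.3% with no control subtracted (38 higher, 23 lower), where the divisors come from the treated rates and change too. The share was 55.8% among nucleotides with an untreated rate under 0.05 (72 and 57). It was 72.9% when treated rates had to differ by a log2 ratio of 1 with 0.01 added to each (35 higher, 1.95%, and 13 lower, 0.723%).

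**Figure D2:**
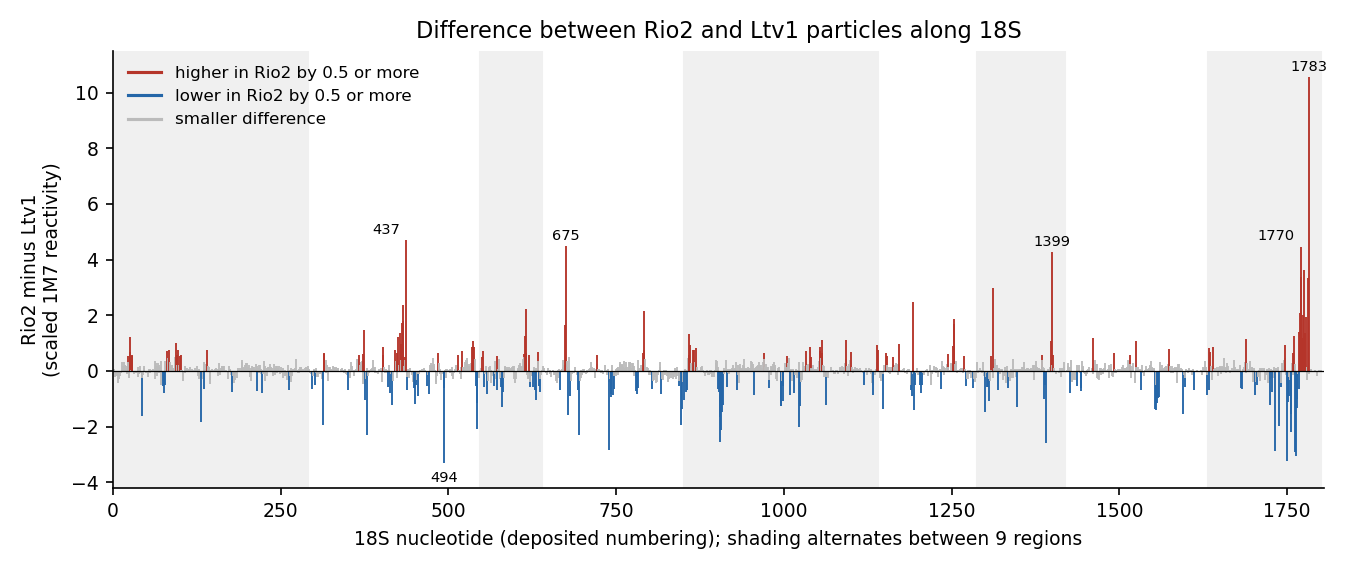
Scaled 1M7 reactivity of Rio2 minus that of Ltv1 (y) at nucleotides 2 to 1800 (x), with grey and white bands for the 9 regions. The tallest bar, 10.6 at C1783, is followed by 4.71 at A437, 4.49 at U675, 4.47 at U1770 and 4.27 at C1399, and the lowest is -3.30 at U494.

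Among the 6 pairs of mid-early purifications, Rio2 and Ltv1 had the second smallest number of differing nucleotides. The control was the same, but each column had its own divisor, 0.0320 for Enp1 and 0.0267 for Tsr1. Rio2 differed by 0.5 or more from Enp1 at 346 nucleotides and from Tsr1 at 371, against 256 from Ltv1. Ltv1 differed from Enp1 at 349 and from Tsr1 at 271, and Enp1 differed from Tsr1 at 174, the fewest of the 6 pairs. The rank of Rio2 and Ltv1 depended on the measure. By Pearson r of the treated rates Ltv1 and Tsr1 were closer (0.925) than Rio2 and Ltv1 (0.886). By Spearman rho they were not (0.896 against 0.904). At 57 of the 112 nucleotides higher in Rio2 than in Ltv1, Enp1 and Tsr1 both lay within 0.5 of Ltv1, and at 17 both lay within 0.5 of Rio2. At the 144 lower ones, both lay near Ltv1 at 30 and near Rio2 at 39. Over all 1799 nucleotides they lay near Ltv1 at 76.8% and near Rio2 at 74.6%, so where Rio2 was the higher of the pair it was more often the column away from the other mid-early particles, and where it was the lower no such side showed. These shares are descriptions, since all 4 columns share the control.

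The largest difference was at the 3′ end of the molecule, in h45, the short hairpin whose loop holds adenines that the methylase Dim1 dimethylates. At C1783, the stop 3′ of dimethylated A1782, the drop-off rate was 0.501 in Rio2 and 0.166 in Ltv1 particles, against 0.164 in Enp1, 0.105 in Tsr1 and 0.156 in the control. The Rio2 rate was 3.01 times the Ltv1 rate, and Enp1 and Tsr1 lay with Ltv1. Nob1 particles, whose strain is in the late control, had 0.267 there, against 0.129 in the late control, so their rate lay between those of Rio2 and Ltv1. In reactivity C1783 was 10.9 in Rio2, the highest value of that column, and 0.310 in Ltv1. The control is a mean over strains, so the untreated rate of the Rio2 strain alone at this stop is not given. Whether untreated stops differ between the strains there was not tested. The stop listed at A1782, 3′ of dimethylated A1781, was nearly complete, at 0.974 in Rio2, 0.978 in Ltv1 and 0.977 in the control. At A1781 the rate was 0.359 in Rio2 and 0.248 in Ltv1, against 0.346 in the control, so that Rio2 was near untreated RNA there and Ltv1 below it.

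The 10 nucleotides of h45 from U1769 to G1778 were all higher in Rio2, the largest such run in the molecule. Their rates averaged 0.141 in Rio2 and 0.0725 in Ltv1 particles, against 0.0279 in Enp1, 0.0469 in Tsr1 and 0.0604 in the control. Nob1 particles averaged 0.09 over this run, between Rio2 and Ltv1, so rates above those of Ltv1 were not particular to Rio2. U1769 had a rate of 0.238 in Rio2 and 0.177 in Ltv1, against 0.061 in Enp1, 0.0746 in Tsr1 and 0.0784 in the control. At this first nucleotide of the run Rio2 and Ltv1 were thus both above the remaining mid-early particles. U1770 had 0.215 in Rio2 and 0.0749 in Ltv1, against 0.0508 in the control, and U1771 had 0.181 in Rio2 and 0.0747 in Ltv1, against 0.0642. U1775 had 0.204 in Rio2 and 0.0908 in Ltv1, against 0.072 in the control. C1773, which cells acetylate, had 0.0371 in Rio2 and 0.00736 in Ltv1, against 0.0177 in the control, and G1774, the stop 3′ of it, had 0.0999 in Rio2 and 0.0362 in Ltv1, against 0.0316. From C1772 on, Ltv1 lay below the control or within 0.02 above it, while Rio2 lay above the control at each nucleotide of the run.

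Of the 24 nucleotides of h45, 12 (50.0%) were higher in Rio2 by 0.5 or more and 0 were lower. Mean reactivity in h45 was 1.42 in Rio2 and -0.06 in Ltv1, and without C1783 it was 1.01 in Rio2 and -0.07 in Ltv1. The mean difference of 1.48 depended on the measure: the median was 0.474, the mean was 0.733 with no control subtracted and 0.320 over nucleotides with an untreated rate under 0.05. The nucleotides 3′ of C1783 hardly stopped the enzyme in either column, as C1784 with 0.0069 in Rio2 and 0.00762 in Ltv1. The run lies just 5′ of the nearly complete stop at A1782, and the number of reads behind its rates is not given.

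**Figure D3:**
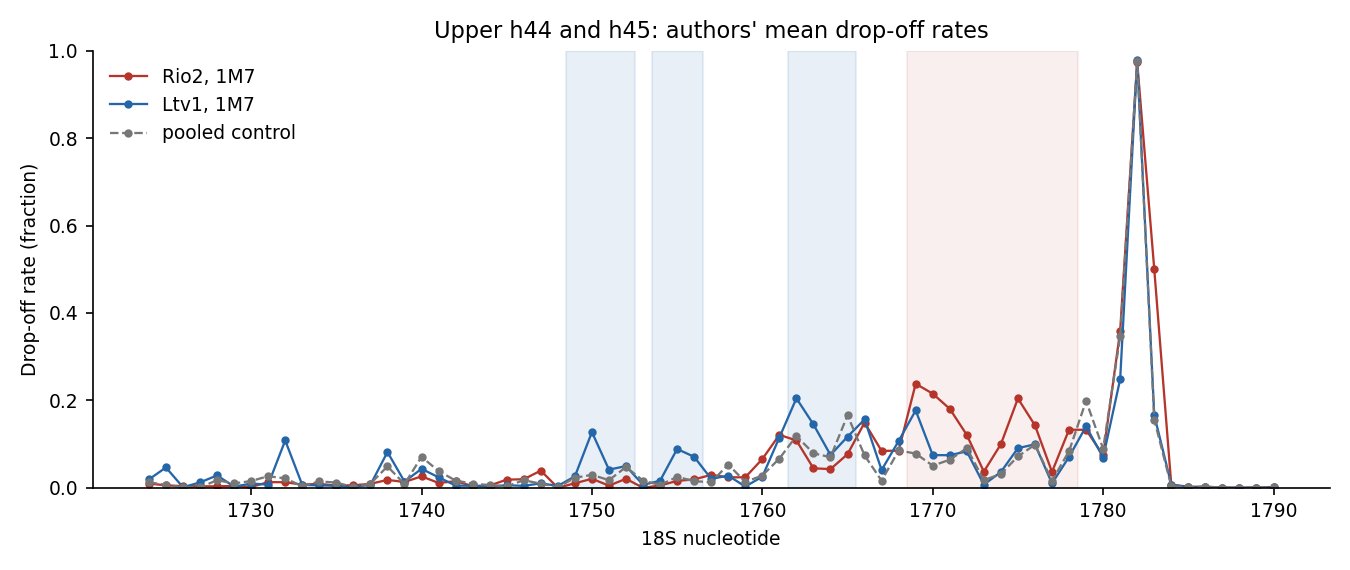
Drop-off rates (y, fraction) of Rio2, Ltv1 and the pooled control along the upper part of h44 and most of h45 (x, nucleotide), each point the authors' mean. In the red band (U1769 to G1778) Rio2 averages 0.141 and Ltv1 0.0725, while in the blue bands (A1749 to U1752, A1754 to A1756 and A1762 to A1765) Ltv1 is the higher of the pair, and all columns peak at A1782.

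In h44, on the 5′ side of this run, more nucleotides were lower in Rio2 than higher, though G1767 at its end was higher. This long helix carries the decoding site at its top. Of its 134 nucleotides, 18 (13.4%) were lower in Rio2, against 8.00% over the molecule, and 8 (5.97%) were higher, against 6.23%. The mean difference was -0.13 and the median 0.03, so the lower values came from a minority of nucleotides while most of the helix was level. On the scale of the treated rates, 10 of the 13 nucleotides of the molecule that were lower in Rio2 by a log2 ratio of 1 lay in h44 (7.46% of the helix, against 0.723% over the molecule). By the same measure 4 nucleotides of h44, A1746, G1747, C1759 and G1760, were higher in Rio2 (2.99%, against 1.95%).

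A1755 and A1756 are the adenines that read the codon-anticodon helix in the mature decoding centre. The rate at A1755 was 0.016 in Rio2 and 0.0889 in Ltv1, against 0.0896 in Enp1, 0.0351 in Tsr1 and 0.0251 in the control. At A1756, the stop 3′ of A1755, it was 0.0192 in Rio2 and 0.071 in Ltv1, against 0.0546 in Enp1, 0.0292 in Tsr1 and 0.0153 in the control. Rio2 was thus near the control at both, Ltv1 and Enp1 were above it, and Tsr1 lay between. How many reads lie behind these low rates is not given, and A1753 close by is listed at 0 in Rio2. At G1757, the stop 3′ of A1756, the order was turned, with 0.0297 in Rio2 and 0.0205 in Ltv1, against 0.0127 in the control.

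On the 5′ side of these adenines, A1750 had a rate of 0.0206 in Rio2 and 0.128 in Ltv1, against 0.0643 in Enp1, 0.0414 in Tsr1 and 0.0298 in the control. This was the second-lowest difference of the molecule, at -3.24 in reactivity. Farther down the helix A1732 had 0.0129 in Rio2 and 0.108 in Ltv1, against 0.0404 in Enp1, 0.0136 in Tsr1 and 0.0217 in the control. U1738 had 0.0181 in Rio2 and 0.0819 in Ltv1, against 0.0491 in the control. At all 3 Ltv1 was the highest of the 4 purifications and Rio2 the lowest.

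On the 3′ side of the decoding site, A1763 had a rate of 0.0447 in Rio2 and 0.145 in Ltv1, against 0.134 in Enp1, 0.162 in Tsr1 and 0.079 in the control. Here Rio2 was the column that stood apart, below untreated RNA. At A1762 the rates were 0.108 in Rio2 and 0.205 in Ltv1, against 0.112 in Enp1, 0.126 in Tsr1 and 0.119 in the control, and the column apart was Ltv1. G1767, at the end of the helix, was higher in Rio2, with 0.0845 in Rio2 and 0.0408 in Ltv1, against 0.0163 in the control. Rates of 0 are listed in this helix, at G1748 and A1753 in Rio2 and at G1715 in Ltv1, and nowhere else in these columns. How many reads lie behind the h44 values is not given.

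In the platform the 8 nucleotides from G902 to U909 formed the largest run lower in Rio2. Their rates averaged 0.0853 in Rio2 and 0.134 in Ltv1, against 0.0799 in Enp1, 0.09 in Tsr1 and 0.0531 in the control. A905 had 0.123 in Rio2 and 0.211 in Ltv1, against 0.113 in Enp1, 0.142 in Tsr1 and 0.0761 in the control. A906 had 0.116 in Rio2 and 0.189 in Ltv1, against 0.115 in Enp1, 0.119 in Tsr1 and 0.0575 in the control, and A907 had 0.103 in Rio2 and 0.156 in Ltv1, against 0.0299 in the control. From A905 on the stops were above the control in all 4 purifications, and Ltv1 was higher than the other 3 at each of the 8 nucleotides. Nob1 particles averaged 0.137 over this run, beside 0.134 in Ltv1, so the high rates were not particular to Ltv1. Also in the platform, the run from A995 to U999 averaged 0.0601 in Rio2 and 0.0907 in Ltv1, against 0.0415 in the control. In the whole platform region 19 of 290 nucleotides (6.55%) were higher and 26 (8.97%) lower in Rio2, near the shares over the molecule.

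The 5′ domain differed unevenly. From nucleotide 2 to 290, 13 of 289 nucleotides (4.50%) were higher and 10 (3.46%) lower in Rio2, and in the rest of the domain, 24 of 256 (9.38%) were higher and 21 (8.20%) lower. In the first stretch C25 had a rate of 0.0648 in Rio2 and 0.0274 in Ltv1, against 0.0157 in Enp1, 0.0109 in Tsr1 and 0.00833 in the control. Rio2 was the highest of the 4 mid-early purifications there, and Nob1 particles had 0.0819. U132 had 0.0512 in Rio2 and 0.112 in Ltv1, against 0.0743 in Enp1, 0.0939 in Tsr1 and 0.0606 in the control, and A43 had 0.0578 in Rio2 and 0.112 in Ltv1, against 0.0536 in the control. At U132 and A43 Rio2 was the lowest of the 4 purifications.

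In the second stretch the 6 nucleotides from A428 to C433 formed the second largest run higher in Rio2. Their rates averaged 0.0581 in Rio2 and 0.012 in Ltv1, against 0.0329 in Enp1, 0.0257 in Tsr1 and 0.0203 in the control. C433 had 0.092 in Rio2 and 0.0166 in Ltv1, against 0.0512 in Enp1, 0.0378 in Tsr1 and 0.0251 in the control, a 5.55-fold higher rate in Rio2 than in Ltv1. G432 had 0.0679 in Rio2 and 0.0108 in Ltv1, against 0.0173 in the control. Rio2 was the highest and Ltv1 the lowest of all columns at both, so that Ltv1 lay below untreated RNA.

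A few nucleotides on, A437 is the stop 3′ of the ribose-methylated A436. Its rate was 0.194 in Rio2 and 0.0404 in Ltv1, against 0.207 in Enp1, 0.0944 in Tsr1 and 0.13 in the control. With the pooled control in the middle, Rio2 was 2.01 and Ltv1 -2.70 in reactivity. The Tsr1 DMSO samples had 0.0534, above Ltv1 and below Rio2, Enp1 and Tsr1. In the same region U494 had the lowest difference of the molecule, at -3.30. Its rate was 0.103 in Rio2 and 0.215 in Ltv1, against 0.13 in Enp1, 0.167 in Tsr1 and 0.0437 in the control. The rate of this stop was above the control in all 4 purifications, and least so in Rio2.

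**Figure D4:**
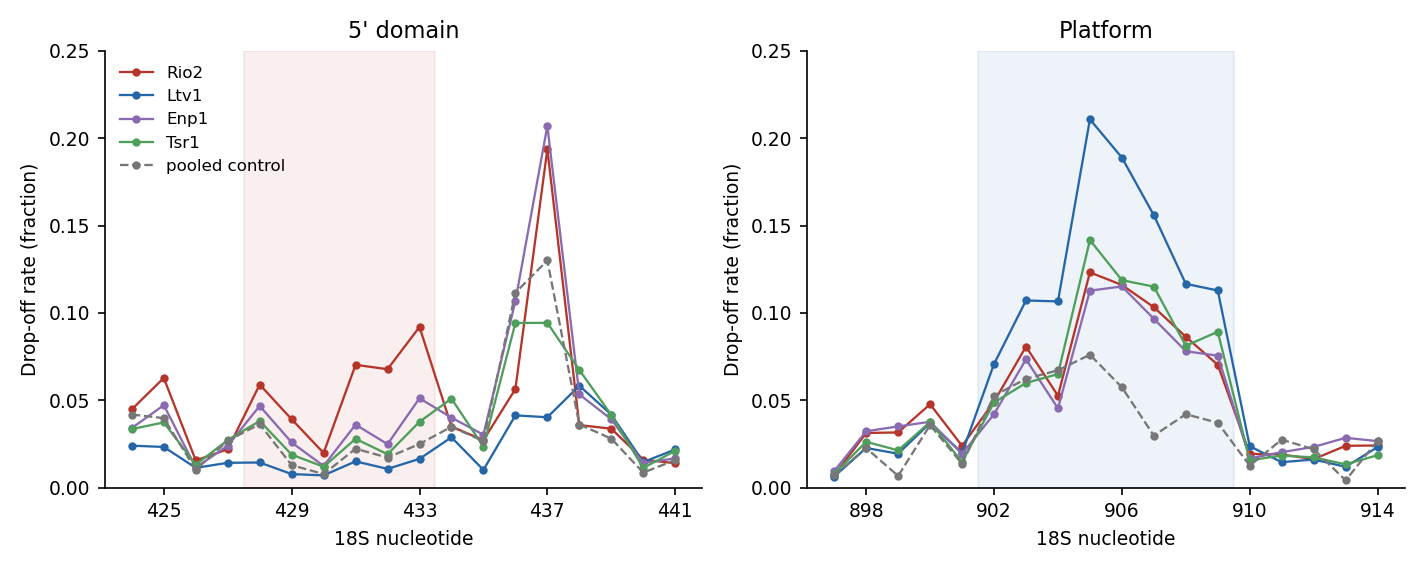
Drop-off rates (y, fraction) of Rio2, Ltv1, Enp1 and Tsr1 particles and of the pooled control around the run higher in Rio2 in the 5′ domain (left, red band A428 to C433) and the run lower in Rio2 in the platform (right, blue band G902 to U909), by nucleotide (x). On the left Rio2 averages 0.0581 and Ltv1 0.012 in the band, with the other columns between them, and on the right Rio2 (0.0853) runs with Enp1 and Tsr1 while Ltv1 (0.134) lies above.

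Between body and platform, the run from U611 to G616 was higher in Rio2, with a mean rate of 0.0607 in Rio2 and 0.0309 in Ltv1, against 0.0396 in Enp1, 0.0368 in Tsr1 and 0.0327 in the control. Within it A615 had 0.111 in Rio2 and 0.04 in Ltv1, against 0.0558 in the control. In this region, h18 to h20, 9 of 93 nucleotides (9.68%) were higher and 13 (14.0%) lower in Rio2. The lowest was A580, near the decoding-site nucleotide G577, with 0.06 in Rio2 and 0.103 in Ltv1, against 0.103 in Enp1, 0.117 in Tsr1 and 0.0481 in the control. There Rio2 was the lowest of the 4 purifications.

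Expansion segment 6, which eukaryotic subunits have beyond the bacterial core, held 6 higher (2.84%) and 18 lower (8.53%) nucleotides of 211. U675 had a rate of 0.215 in Rio2 and 0.0677 in Ltv1, against 0.111 in Enp1, 0.118 in Tsr1 and 0.184 in the control. The control itself is high there, and Ltv1, Enp1 and Tsr1 all lay below it. The Tsr1 DMSO samples had 0.0936, above Ltv1 and below Enp1 and Tsr1, so this reading depended on the control. U695 had 0.0847 in Rio2 and 0.164 in Ltv1, against 0.268 in Enp1, 0.213 in Tsr1 and 0.0311 in the control. At U695 both Rio2 and Ltv1 were thus lower than Enp1 and Tsr1, and Rio2 the lowest. A740 had 0.0973 in Rio2 and 0.189 in Ltv1, against 0.149 in the control.

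In the head, where Ltv1 binds, the shares of differing nucleotides were near those of the whole molecule or under them. From h28 to h34, 10 of 147 (6.80%) were higher and 11 (7.48%) lower in Rio2. From h35 to h40, 6 of 132 (4.55%) were higher and 10 (7.58%) lower, and from h41 to h43, 5 of 212 (2.36%) were higher and 15 (7.08%) lower. By log2 ratio of the treated rates, 0 nucleotides from h35 to h43 were past 1 either way. Of the 5 highest reactivities of a column, 4 in Rio2 and 3 in Ltv1 lay in h35 to h40.

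C1399 had a rate of 0.285 in Rio2 and 0.155 in Ltv1, against 0.251 in Enp1, 0.172 in Tsr1 and 0.0211 in the control. A1391, close by, had 0.259 in Rio2 and 0.353 in Ltv1, against 0.238 in Enp1, 0.292 in Tsr1 and 0.0728 in the control. These stops, both strong in all 4 purifications, had opposite orders, with Rio2 beside Enp1 and Ltv1 beside Tsr1 at C1399. A1312 had 0.222 in Rio2 and 0.133 in Ltv1, against 0.173 in Enp1, 0.158 in Tsr1 and 0.00737 in the control. Its 3′ neighbour A1313 was level, with 0.139 in Rio2 and 0.140 in Ltv1, and U1311 had 0.0926 in Rio2 and 0.104 in Ltv1. U1347 had 0.21 in Rio2 and 0.261 in Ltv1, against 0.035 in the control.

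In h31, whose loop carries the hypermodified U1191 at the P site, 1 of 20 nucleotides (5.00%) was higher in Rio2, against 6.23% over the molecule, and 4 (20.0%) were lower, against 8.00%. At C1192, the stop 3′ of U1191, the rate was 0.131 in Rio2 and 0.045 in Ltv1, against 0.0737 in Enp1, 0.176 in Tsr1 and 0.219 in the control. Both Rio2 and Ltv1 were below the control, Ltv1 the farther. The Tsr1 DMSO samples had 0.125, between Rio2 and Ltv1. On the 3′ side of the loop A1194 was lower in Rio2, at 0.0334 in Rio2 and 0.0808 in Ltv1, against 0.0658 in Enp1, 0.0715 in Tsr1 and 0.0133 in the control. The rate of the stop at A1194 was thus above the control in all 4 purifications, and least so in Rio2. Also in the head, U1253 and U1254 were higher in Rio2, with 0.222 in Rio2 and 0.168 in Ltv1 at U1253, against 0.156 in the control, and 0.197 in Rio2 and 0.138 in Ltv1 at U1254, against 0.134.

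From h41 to h43 the run from G1553 to A1559 was lower in Rio2. Its rates averaged 0.0447 in Rio2 and 0.0767 in Ltv1, against 0.0626 in Enp1, 0.0666 in Tsr1 and 0.0667 in the control. Rio2 lay below this pooled control at all 7 nucleotides. Against the Tsr1 DMSO samples Rio2 was lower at G1553, U1554 and A1559 and higher from A1555 to U1558. C1461 had the largest difference in favour of Rio2 there, with 0.0956 in Rio2 and 0.061 in Ltv1, against 0.00835 in the control.

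**Figure D5:**
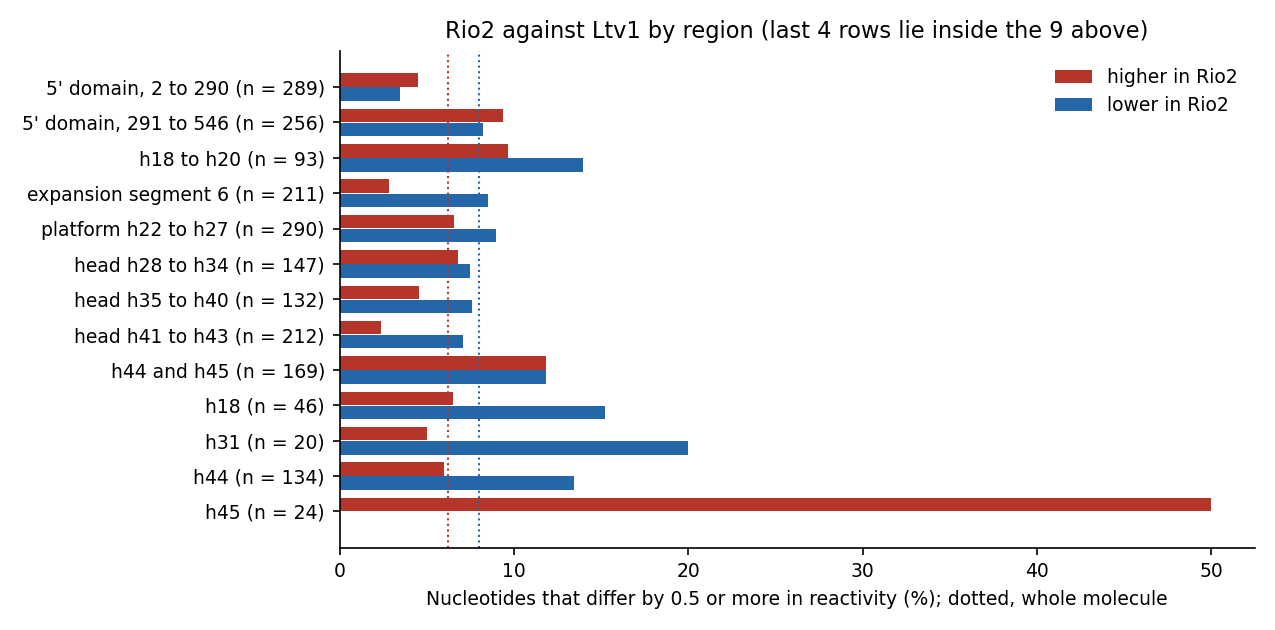
Percent of nucleotides (x) that were higher (red) or lower (blue) in Rio2 than in Ltv1 by 0.5 or more in scaled reactivity, by region (rows, with the number of nucleotides), and over all 1799 (dotted lines, 6.23% and 8.00%). h45 stands apart with 50.0% higher and 0 lower, and h31 has the largest share lower, 4 of 20.

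Nucleotides of known function were read at the site and at the stop 3′ of it, and their counts stand beside 6.23% higher and 8.00% lower over all nucleotides. Of 9 nucleotides of the decoding and P sites, G577, G1150, U1191, G1575, A1576, C1637, C1639, A1755 and A1756, 0 were higher and 3 were lower in Rio2 at the listed position, with a median difference of -0.03, against 0.03 over all nucleotides. The 3 were U1191, A1755 and A1756. At U1191 both columns lay below the control, with 0.0468 in Rio2 and 0.0745 in Ltv1, against 0.102. The Tsr1 DMSO samples had 0.0533 there, between Rio2 and Ltv1. At the stop 3′ of them 2 were higher and 2 lower, with a median of 0.17. G1575 and A1576, which line the P site from the head, were near the control in both columns, with 0.0146 in Rio2 and 0.0127 in Ltv1 at G1575, against 0.0201.

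Of the 18 ribose-methylated nucleotides, 3 were higher and 2 lower in Rio2 at the nucleotide itself, with a median difference of 0.10. At the stops 3′ of them 6 were higher and 2 lower, with a median of 0.09, against the same 6.23% and 8.00% over the molecule. Of 6 base-modified nucleotides, 2 were higher and 1 lower at the nucleotide, and 3 higher and 0 lower at the stop 3′ of it. The lower of the stops 3′ of ribose-methylated nucleotides included A542, 3′ of methylated A541, with 0.114 in Rio2 and 0.181 in Ltv1, against 0.0472 in Enp1, 0.114 in Tsr1 and 0.162 in the control. The higher ones, besides A437, included C1640, 3′ of methylated C1639, with 0.132 in Rio2 and 0.0996 in Ltv1, against 0.21 in the control, both below untreated RNA. U101 and A620, also among the higher ones, lay below the pooled control in both columns as well. Higher in Rio2 thus did not mean above the control at these stops. Acetylated C1280 had 0.0135 in Rio2 and 0.0204 in Ltv1, against 0.0173 in the control, and G1281, 3′ of it, had 0.0166 in Rio2 and 0.0202 in Ltv1, against 0.0291.

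The direction of a difference went with the base at the stop. Where that base was guanine, 25 of 459 nucleotides (5.45%) were higher in Rio2 and 7 (1.53%) lower, and where it was cytosine, 23 of 348 (6.61%) were higher and 8 (2.30%) lower. At adenine 42 of 483 (8.70%) were higher and 70 (14.5%) lower, and at uracil 22 of 509 (4.32%) were higher and 59 (11.6%) lower. By the base 5′ of the stop, which carries the adduct, the split was another one. At guanine 27 of 459 (5.88%) were higher and 46 lower, the other way from guanine at the stop. At adenine 32 of 482 (6.64%) were higher and 44 (9.13%) lower, at uracil 31 of 510 (6.08%) were higher and 33 (6.47%) lower, and at cytosine 22 of 348 (6.32%) were higher and 21 (6.03%) lower.

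The untreated rate went with the base as well. It averaged 0.044 at adenine and 0.0349 at uracil, against 0.018 at cytosine and 0.0134 at guanine. Of 917 nucleotides with an untreated rate under 0.02, 35 (3.82%) were higher in Rio2 and 11 (1.20%) lower. Of 616 with a rate of 0.02 to 0.05, 37 (6.01%) were higher and 46 (7.47%) lower, and of 219 with 0.05 to 0.1, 26 (11.9%) were higher and 68 (31.1%) lower. Of the 47 with 0.1 or more, 14 (29.8%) were higher and 19 (40.4%) lower, so the excess of lower nucleotides was smaller there than in the class below it. With the mean difference of each stop base taken off, a setting chosen after the data were seen, 112 nucleotides were higher and 136 lower. The parts of base and of background in the named differences were not tested.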

How the data were processed

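The deposited values are drop-off rates, a fraction from 0 to 1 for each nucleotide, which the authors averaged over the samples of a group before deposit, per the file headers. Complexes were immunoprecipitated through HTP tags and cDNA was primed with random hexamers, per the labels' protocols. The submitters' processing notes name Novoalign 2.07. The computation of the rates and the reference used are not stated here. Depth is unknown.

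Reactivity, its differences, regions and runs (at least 3 adjacent nucleotides differing by 0.3 or more one way) were computed in Python 3.11.15 with numpy 2.4.6 and pandas 2.3.3, and the calculation was tested on simulated data. No test was made. Named nucleotides were the 15 largest differences each way at an untreated rate under 0.1, the 5 largest each way at any rate, the 5 highest reactivities of each column, each region's extremes, the 6 largest runs each way, and listed decoding-site and modified nucleotides with the stop 3′ of each. Neighbours, nucleotides at the limit and those listed at 0 were named after their values were seen. Members, regions and lists were chosen with earlier results of these data known. Alternatives were other controls, divisors, limits and subsets of nucleotides.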

Additional observations from a re-analysis of the deposited data

How the results depend on the processing

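The 112 nucleotides higher and 144 lower in Rio2 became 38 and 23 with no control subtracted, 68 and 84 with divisors from the top 10% of nucleotides, 72 and 57 with untreated rates under 0.05 only, 210 and 228 at a limit of 0.3, and 39 and 50 at a limit of 1. With negative reactivities set to 0, 81 were higher and 81 lower. By a log2 ratio of the treated rates, added after the data were seen, 35 were higher and 13 lower. Limits and subsets change counts by construction. With no control subtracted, or with divisors from the top 10%, the divisors themselves change, so the limit stands for another rate difference. Other causes were not tested. With the Tsr1 DMSO column as control (109 and 140), the late control (100 and 131), 1 common divisor (110 and 146), without the last 50 nucleotides (97 and 135), without h45 and the rest of the 3′ end (100 and 144, added later) and centred on the base at the stop (112 and 136, added later), both counts stayed within 1.5 times. Of 133 nucleotides that could be named, 90 differed by 0.5 or more. Under the controls, scalings and subsets tried on single nucleotides 0 of these changed sign, while 10 came to 0 when negative reactivities were set to 0. That 0 changed sign was largely fixed in advance and is no support. The control rate cancels in the unscaled difference, so another control acts mainly through the divisors. A subset leaves the value of a single nucleotide as it was. The mean difference in h45 ranged from 0.32 (untreated rate under 0.05) to 1.45 over its alternatives, which did not include the last 50 nucleotides left out, as h45 lies in them. In h44 it ranged from -0.14 to 0.03, the highest being the median. No paired analysis was possible because each group has 1 averaged column. Leaving out a replicate could not be done for the same reason. Depth is not given, so low rates, those of h44 above all, carry an unknown counting error.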
